A study of Mus musculus with 17 samples.

Results

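The genes of heme synthesis were examined in tumors that had not themselves been frozen, taken from mice with a second tumor. The 8 genes Alas1, Alas2, Alad, Uros, Urod, Cpox, Ppox and Fech were chosen by name from the 21931 genes of the deposited count table, and all 8 were found there and passed the filter on low counts, which 13005 genes passed. C57BL/6J mice of 6 to 8 weeks, their samples labelled wild type, carried subcutaneous tumors of MC38, a mouse colon cancer line, on both flanks. In the Cryo group the tumor of one flank was ablated by freezing on day 7 after implantation, in 2 freezing cycles of 20 s according to the labels, and mice of the Con group served as controls. The tumor of the other flank was taken on day 5 after ablation for bulk RNA sequencing, giving 9 Con and 8 Cryo tumors by their labels. All tumors came from the same cell line, so nothing here separates its behaviour from that of other lines. The labels do not number the mice, so p values measure the spread between these tumors.

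Heme is made in a chain of enzymes that begins and ends in the mitochondrion and passes through the cytosol. The first enzyme, 5-aminolevulinate synthase, sets the pace of the chain and is encoded by separate genes: Alas1 is used by nearly all cells, whereas Alas2 is used by developing red cells, which need heme for hemoglobin. The remaining enzymes are shared by all tissues. The comparison therefore addressed whether the red cell form of the first enzyme and the enzymes common to all cells differed between distant tumors of the Con and Cryo groups. In bulk tumor RNA, fewer cells of a type and less RNA per cell cannot be told apart.

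The sequences before the start sites of Alas2 and Alas1 are shown because these genes encode the same step, Alas2 in the red cell lineage and Alas1 in nearly all cells. They are the 250 bases before a start site in RefSeq on GRCm38.p6, read 5′ to 3′ on the strand of the gene, chrX:150547167-150547416 on the plus strand for Alas2 and chr9:106247731-106247980 on the minus strand for Alas1. Capitals mark matches on either strand to 3 motifs, the GATA motif (spelled NGATAN, with an adenine or thymine first and a purine last), KLF (CCNCNCCC) and the NRF1 core (GCATGCGC).
Alas2: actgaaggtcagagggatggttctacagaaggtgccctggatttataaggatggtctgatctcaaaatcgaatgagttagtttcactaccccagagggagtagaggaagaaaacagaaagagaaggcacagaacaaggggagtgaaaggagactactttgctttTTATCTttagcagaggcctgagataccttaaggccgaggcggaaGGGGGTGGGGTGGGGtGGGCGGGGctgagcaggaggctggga
Alas1: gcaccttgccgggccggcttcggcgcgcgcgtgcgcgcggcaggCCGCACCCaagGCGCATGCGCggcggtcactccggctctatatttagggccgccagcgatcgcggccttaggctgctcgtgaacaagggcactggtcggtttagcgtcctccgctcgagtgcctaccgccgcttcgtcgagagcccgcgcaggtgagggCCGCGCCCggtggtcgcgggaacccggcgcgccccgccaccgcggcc
The Alas2 window held a GATA match 86 bases before the start and KLF matches 42, 40, 35 and 26 bases before it, the first 3 of which overlap. The Alas1 window shown held overlapping NRF1 matches 195 and 193 bases before the start and KLF matches 206 and 47 bases before it. Another RefSeq start of Alas1 has its window at chr9:106247955-106248204, which held 1 KLF match and 0 matches to GATA and NRF1. A RefSeq window was at hand for 7 of the 8 genes, with 10 start sites in all. The GATA motif was found in 3 of these 10 windows, those of Alas2, Cpox and 1 of Uros, and in 26.5% of all 32851 promoter windows of this length. The KLF motif was found in 6 of 10 windows and in 45.9% of all, and the NRF1 core in 1 of 10 and in 2.26% of all. These are matches of letters, and they do not show that a factor was bound.

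Total counts were between 14154687 and 17898672 in Con and between 13524899 and 16847050 in Cryo. Some libraries stood apart in how their counts followed gene length. In each tumor, the slope of log2 expression, taken relative to the mean of all tumors, was computed for each doubling of the listed gene length. It ran from -0.168 to 0.195 in Con and from -0.391 to 0.231 in Cryo. A negative slope means that short genes had relatively high counts and long genes relatively low ones. The 5 most negative slopes were those of Cryo tumors 5 (-0.391), 2 (-0.301) and 4 (-0.268) and Con tumors 5 (-0.168) and 1 (-0.135). Fold changes are also given without the 3 Cryo tumors and, for genes that changed sign or size there, without all 5. Of markers of colon epithelium, Cdx2 had 0 counts in all 17 tumors, Krt20 0 to 7 and Vil1 0 to 11.

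Across the 8 genes, Alas2 had the largest fold change, and its mean was higher in Cryo tumors. In edgeR's quasi-likelihood test, 2 of the 8 genes, Alas2 and Alad, had an unadjusted p under 0.05, both with higher means in Cryo, against 4.91% of all 13005 genes tested, with 3.74% higher and 1.17% lower in Cryo. No gene of the 8, and 0% of all genes, had a Benjamini-Hochberg adjusted p under 0.05, the lowest adjusted p of any gene being 0.728, and DESeq2 and limma voom also called 0 of the 8 after adjustment. At an unadjusted p under 0.05, DESeq2 also called Alas2 and Alad, against 6.77% of all genes, limma voom Alas2, Cpox and Ppox against 10.1%, and edgeR with the replicate number as a block Alas2 and Cpox against 3.43%. With a further demand of an absolute log2 fold change above 1, no gene of the 8 was left, while 0.492% of all genes were. The median log2 fold change of Cryo over Con was 0.15 for the 8 genes and -0.01 for all genes tested. The SD of log2 CPM between tumors was larger in Cryo than in Con for 8 of the 8 genes, as it was for 80.2% of all genes tested.

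**Figure D1:**
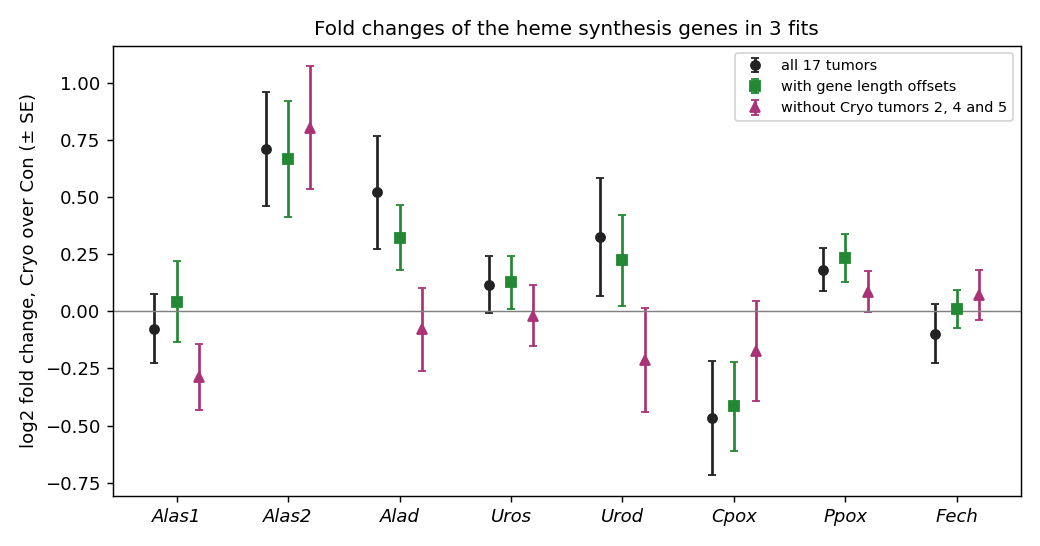
Log2 fold change of Cryo over Con (vertical axis, ± SE) for each of the 8 genes in 3 edgeR fits: all 17 tumors, all tumors with offsets for gene length, and without Cryo tumors 2, 4 and 5. Alas2 lay at 0.71, 0.67 and 0.80, while Alad, Uros and Urod lay above 0 with all tumors and below 0 without the 3 Cryo tumors.

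Alas2 (ENSMUSG00000025270, plus strand of chromosome X, 149330371 to 149353634 in the positions the table lists) was the scarcest of the 8 genes, with 8 to 35 reads per tumor. Its normalized level, in CPM (the count as a share of the TMM-scaled library), had a lowest, median and highest value of 0.462, 0.834 and 1.46 in Con and of 0.703, 1.5 and 1.97 in Cryo. The groups overlapped, with 7 of 8 Cryo tumors above the Con median and 4 above the highest Con tumor. Its mean was 0.890 ± 0.291 CPM (SD, n = 9) in Con and 1.45 ± 0.469 CPM (SD, n = 8) in Cryo. Its log2 fold change was 0.71 (SE 0.25), with an unadjusted p of 0.0104 and an adjusted p of 0.728 in edgeR's quasi-likelihood test. The two-sided exact permutation test of mean log2 CPM gave p = 0.0140, where the smallest p that 24310 splits allow is 4.11e-05.

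Counting error was wide at this depth. The lowest count of Alas2, 8 reads in Con tumor 2, had an exact 95% Poisson interval of 3.45 to 15.8, and the highest, 35 reads in Cryo tumor 3, one of 24.4 to 48.7. These intervals cover counting error only. The log2 fold change was no smaller without the tumors with a steep length slope. It was 0.67 with offsets for gene length and 0.80 without Cryo tumors 2, 4 and 5, each with an unadjusted p under 0.05 in edgeR and adjusted p values of 0.714 and 0.941. Without Con tumors 1 and 5 and these 3 Cryo tumors it was 0.998, where 4.26% of all genes had an unadjusted p under 0.05 and Alas2 alone of the 8 did. Leaving out each tumor in turn gave 0.62 to 0.82, with an unadjusted p under 0.05 in 17 of 17 fits.

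**Figure D2:**
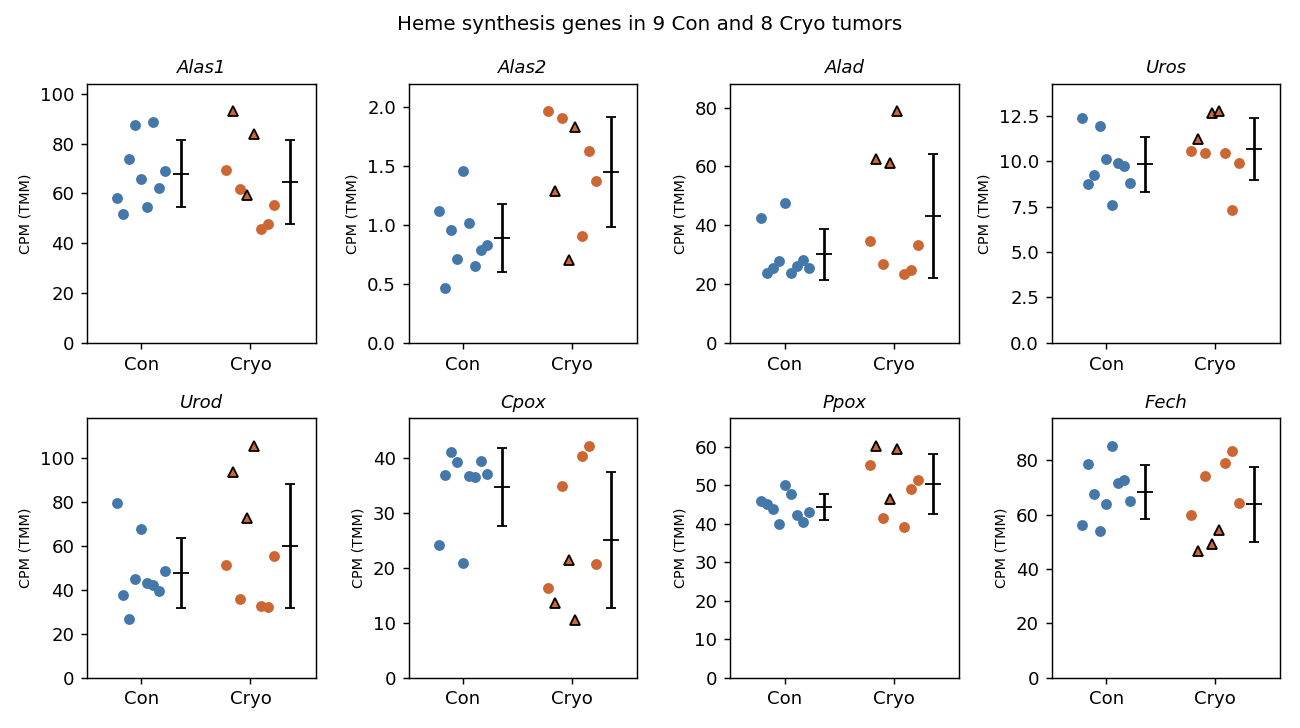
CPM (TMM, linear axes from 0) of each gene in 9 Con and 8 Cryo tumors, 1 point per tumor, with triangles for Cryo tumors 2, 4 and 5 and a bar for the mean ± SD of each group. In Alas2 the triangles spread over the Cryo range, whereas in Alad and Urod they are the 3 highest Cryo tumors.

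Alas2 overlaps another gene. Its whole listed span of 23264 bases lies within Apex2, which encodes an endonuclease of DNA repair and is read from the opposite strand. In GENCODE M21, 311 of the 2403 exonic bases of Alas2 (12.9%) are also exonic in Apex2. Apex2 had a log2 fold change of 0.12 (SE 0.12, p = 0.317), and across the 17 tumors its level was related to that of Alas2 with Pearson's r = 0.45 (permutation p = 0.0721) and Spearman's rho = 0.36 (permutation p = 0.156). Were the reads of Apex2 spread evenly over its exons, the shared bases would hold 10.1 to 14.5 of them in a Con tumor and 8.82 to 12.8 in a Cryo tumor, beside the 8 to 35 reads counted for Alas2. The sources used here do not say whether counting used the strand, so reads of these genes cannot be told apart over the shared bases.

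Hemoglobin genes, whose products hold the heme of red cells, also had higher means in Cryo. Log2 fold changes were 1.75 for Hba-a1, 1.54 for Hbb-bs and 1.45 for Hbb-bt, the 3 of 4 hemoglobin genes that were tested, and Hba-a2 had 0 to 7 counts in Con and 4 to 32 in Cryo. Without Cryo tumors 2, 4 and 5 they were 0.44, 0.52 and 0.97, and none of the 3 had an unadjusted p under 0.05 in edgeR. Without these and Con tumors 1 and 5 they were 1.05, 1.22 and 1.40, and with offsets for gene length 1.26, 1.11 and 1.14, each with an unadjusted p under 0.05. Across tumors, Alas2 was related to Hbb-bt with r = 0.66 (permutation p = 0.00469, adjusted over 3 relations 0.0141; rho = 0.58, p = 0.0167), to Hbb-bs with r = 0.53 (p = 0.0300, adjusted 0.0450; rho = 0.50, p = 0.0430) and to Hba-a1 with r = 0.45 (p = 0.0674, adjusted 0.0674; rho = 0.42, p = 0.0923). Without the 2 tumors farthest from the median of each hemoglobin gene, r was 0.57 for Hbb-bt, 0.57 for Hbb-bs and 0.33 for Hba-a1. The relations did not pass the test within a group. Within Con, r was 0.57 for Hbb-bt (exact permutation p = 0.108), 0.49 for Hbb-bs and 0.40 for Hba-a1, and within Cryo it was 0.31 for Hbb-bt (exact permutation p = 0.449), 0.03 for Hbb-bs and -0.08 for Hba-a1. Cryo tumors 2 and 5 had the highest levels of Hba-a1 (53.2 and 60.5 CPM) and of Hbb-bt (6.80 and 8.10 CPM), with 1.29 and 1.83 CPM of Alas2. Cryo tumor 1, with the highest level of Alas2 (1.97 CPM), had 13.5 CPM of Hba-a1 and 6.03 CPM of Hbb-bt. The part of red cell RNA in the difference of Alas2 was not tested.

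**Figure D3:**
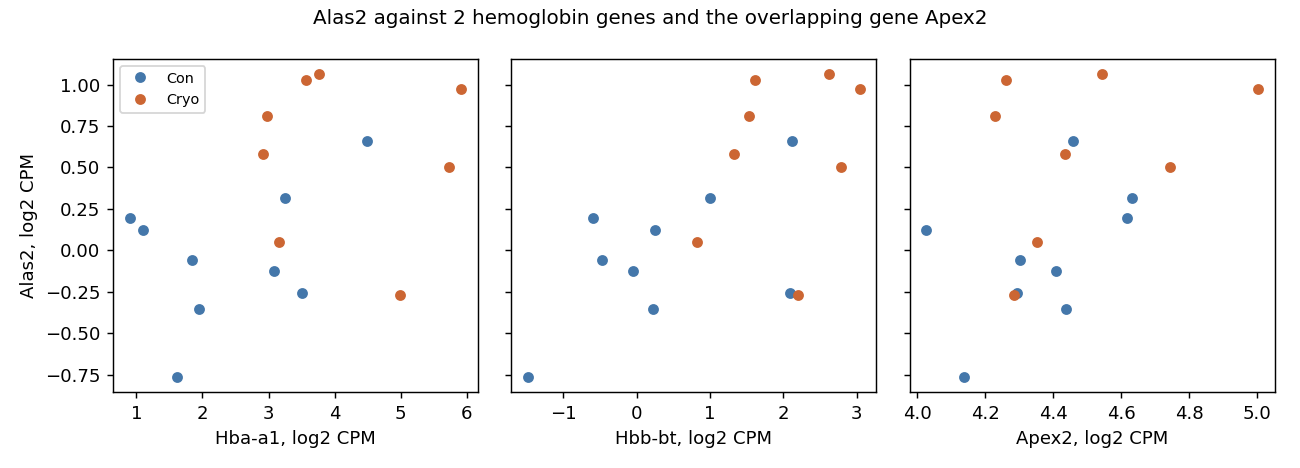
Log2 CPM of Alas2 (vertical axis) against log2 CPM of Hba-a1, Hbb-bt and Apex2 (horizontal axes), 1 point per tumor, for 9 Con and 8 Cryo tumors. The relation over all tumors was r = 0.45 for Hba-a1, 0.66 for Hbb-bt and 0.45 for Apex2, and most Cryo tumors lie to the right of most Con tumors along the hemoglobin axes.

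Several erythroid genes were at or near 0 counts and others were counted in all tumors. Of 20 erythroid markers, 19 are in the table and 6 were tested, of which 0 had an unadjusted p under 0.05 in edgeR, against 4.91% of all genes, with a median log2 fold change of -0.18. The summed level of those in the table was 15.0 to 23.0 CPM in Con and 15.9 to 26.1 CPM in Cryo. Of the defining markers, Slc4a1, the anion exchanger of the red cell membrane, had 0 counts in 12 of 17 tumors and at most 2. The erythroid transcription factors Gata1 and Klf1 had at most 43 and 13 counts, with 0 in 4 and 1 of the tumors. Tspo2 and Car1 had 0 counts in all 17 tumors. Other markers of the list were counted in every tumor, among them the erythropoietin receptor Epor with 48 to 128 reads, Rhd with 32 to 94 and Ank1 with 36 to 90, whose log2 fold changes were 0.38, 0.37 and -0.01. Sptb, Tal1 and Nfe2 were also counted in every tumor, with 5 to 45, 6 to 49 and 10 to 108 reads. Their log2 fold changes were -0.36, -0.45 and -0.55, so 4 of the 6 tested markers lay below 0.

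Alas1 (ENSMUSG00000032786, minus strand of chromosome 9, 106110654 to 106125853 as listed) passed neither test. Its lowest, median and highest values were 51.7, 65.6 and 88.5 CPM in Con and 45.5, 60.5 and 92.9 CPM in Cryo, and the groups overlapped over nearly their whole range. The log2 fold change was -0.08 (SE 0.15; adjusted p = 0.853 in edgeR), and the exact permutation p was 0.562. Its log2 fold change was -0.29 without Cryo tumors 2, 4 and 5 and -0.31 without all 5, with an unadjusted p over 0.05 in both. The levels of Alas1 and Alas2 had a relation across tumors that did not pass the test (r = 0.03, permutation p = 0.900; rho = 0.01, p = 0.974). Per length, in FPKM (the count scaled to gene length and to the tumor's total), Alas1 exceeded Alas2 in every one of the 17 tumors, by a median of 30.6 times in Con (17.5 to 52.4) and of 16.8 times in Cryo (11.4 to 32.8).

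Of the cytosolic enzymes, Alad and Urod followed the tumors with steep length slopes. Alad (ENSMUSG00000028393, chromosome 4, 62427406 to 62438155 as listed), which joins molecules of 5-aminolevulinate into porphobilinogen, had a lowest, median and highest value of 23.7, 26.2 and 47.4 CPM in Con and of 23.4, 34.1 and 78.7 CPM in Cryo. Its 3 highest Cryo tumors were tumors 5, 2 and 4, at 78.7, 62.6 and 61.2 CPM, and its highest Con tumors were tumors 5 and 1, at 47.4 and 42.5 CPM. The log2 fold change was 0.52 (SE 0.25, unadjusted p = 0.0494, adjusted p = 0.728 in edgeR), the exact permutation p was 0.129, and without Cryo tumors 2, 4 and 5 the log2 fold change was -0.08 (p = 0.667), and without all 5 tumors with steep slopes it was 0.15. With offsets for gene length it was 0.32 (adjusted p = 0.714 in edgeR), with an unadjusted p under 0.05.

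Urod (ENSMUSG00000028684, chromosome 4, 116847162 to 116851610 as listed), which removes carboxyl groups from uroporphyrinogen, had 26.8, 42.9 and 79.4 CPM as its lowest, median and highest values in Con and 31.9, 53.2 and 105 CPM in Cryo. The log2 fold change was 0.32 (SE 0.26, adjusted p = 0.738 in edgeR; exact permutation p = 0.373), -0.21 without Cryo tumors 2, 4 and 5 and 0.040 without all 5 tumors. Uros (ENSMUSG00000030979, chromosome 7, 133287972 to 133311801 as listed), which closes the ring of uroporphyrinogen, had 7.59, 9.71 and 12.4 CPM in Con and 7.29, 10.52 and 12.7 CPM in Cryo. Its groups overlapped over their whole range, with a log2 fold change of 0.12 (SE 0.12, adjusted p = 0.772 in edgeR; exact permutation p = 0.330), -0.019 without Cryo tumors 2, 4 and 5 and 0.053 without all 5.

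Of the mitochondrial enzymes that finish the chain, Cpox had a lower mean in Cryo. Cpox (ENSMUSG00000022742, chromosome 16, 58490655 to 58537999 as listed) turns coproporphyrinogen into protoporphyrinogen. Its lowest, median and highest values were 20.8, 37.0 and 41.1 CPM in Con and 10.6, 21.2 and 42.2 CPM in Cryo. In Con, 7 of 9 tumors lay between 36.6 and 41.1 CPM, and tumors 1 and 5 lay at 24.2 and 20.8 CPM. In Cryo, tumors 3, 6 and 7 lay at 34.9, 40.4 and 42.2 CPM and the other 5 at 21.5 CPM or less, 4 of them below the lowest Con tumor. The log2 fold change was -0.47 (SE 0.25, unadjusted p = 0.0769, adjusted p = 0.728 in edgeR), and the exact permutation p was 0.0478. Without Cryo tumors 2, 4 and 5 the fold change was -0.17 on the log2 scale (adjusted p = 0.941 in edgeR), and without all 5 tumors -0.30. Leaving out 1 tumor moved the edgeR p to between 0.020 and 0.144, and the exact permutation p to over 0.05 in 12 of 17 cases, so the call turned on single tumors. Of the 6661 exonic bases of Cpox in GENCODE M21, 204 are shared with Gpr15 on the opposite strand, which had at most 11 counts.

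Ppox (ENSMUSG00000062729, chromosome 1, 171103563 to 171108760 as listed), which makes protoporphyrin, varied least between tumors. Its lowest, median and highest values were 39.9, 43.7 and 50.04 CPM in Con and 39.2, 50.1 and 60.1 CPM in Cryo, with 4 of 8 Cryo tumors above the highest Con tumor. Its log2 fold change was 0.18 (SE 0.09, unadjusted p = 0.0641, adjusted p = 0.728 in edgeR; exact permutation p = 0.0638). It was 0.23 (adjusted p = 0.714 in edgeR) with offsets for gene length, where 4 of the 8 genes (Alas2, Alad, Cpox and Ppox) had an unadjusted p under 0.05 against 5.44% of all genes, and 0.09 without Cryo tumors 2, 4 and 5, where Alas2 alone of the 8 did, against 2.45%. Without all 5 tumors it was 0.13. Of the exonic bases of Ppox, 17.5% are shared with B4galt3 on the opposite strand, whose log2 fold change was -0.28 (adjusted p = 0.756 in edgeR).

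Fech (ENSMUSG00000024588), ferrochelatase, which inserts iron into protoporphyrin, had 53.9, 67.5 and 85.2 CPM as its lowest, median and highest values in Con and 46.5, 62.1 and 83.2 CPM in Cryo. Its log2 fold change was -0.10 (SE 0.13, adjusted p = 0.797 in edgeR; exact permutation p = 0.384), 0.07 without Cryo tumors 2, 4 and 5 and 0.032 without all 5. The 3 Cryo tumors had 3 of the 4 lowest levels of Fech among all 17 tumors.

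The levels of 7 of the 8 genes were related to the length slope of their tumor, and for Alas2 the relation did not pass the test. The listed lengths were 1871 bases for Alad, 2403 for Alas2, 2591 for Urod, 3576 for Uros, 4516 for Ppox, 6174 for Alas1, 6661 for Cpox and 13838 for Fech, beside a median of 4467.5 over all genes tested. Across the 17 tumors, log2 CPM and the slope were related with r = -0.98 (rho = -0.95) for Alad, -0.95 (rho = -0.93) for Urod, -0.76 (rho = -0.76) for Uros, 0.88 (rho = 0.83) for Cpox and 0.87 (rho = 0.92) for Fech. All 5 had adjusted permutation p values of at most 0.00064 over the 8 relations (0.00093 for rho), and the smallest raw p that these permutations can give is 1e-05. Weaker relations were found for Ppox (r = -0.64, adjusted p = 0.00804) and Alas1 (r = -0.53, adjusted p = 0.0331). For Alas2, r was -0.26 (permutation p = 0.321; rho = -0.21, p = 0.412), with -0.60 within Con (exact permutation p = 0.0857) and 0.12 within Cryo (exact permutation p = 0.767).

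Within groups, r was -0.95 in Con and -0.99 in Cryo for Alad, -0.86 and -0.99 for Urod, -0.73 and -0.78 for Uros, 0.87 and 0.90 for Cpox and 0.72 and 0.93 for Fech. By rank the relation of Cpox in Con was weaker, with rho = 0.45 (exact permutation p = 0.230). In Con, rho was -0.83 for Alad, -0.78 for Urod, -0.85 for Uros and 0.88 for Fech. Without the 2 tumors whose slopes lay farthest from the median, r was -0.96 for Alad, -0.90 for Urod, -0.74 for Uros, 0.76 for Cpox and 0.87 for Fech. It was then -0.31 for Ppox (permutation p = 0.264) and -0.28 for Alas1 (p = 0.315; rho = -0.45, p = 0.0990), so neither passed the test without those 2 tumors. Within groups, r for Alas1 was -0.15 in Con and -0.82 in Cryo (exact permutation p = 0.0148). For Ppox, r was -0.29 in Con and -0.69 in Cryo (exact permutation p = 0.0662). The signs followed length for the short genes Alad, Urod and Uros and for the long genes Cpox and Fech, but Alas1, with 6174 bases, had a negative r.

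**Figure D4:**
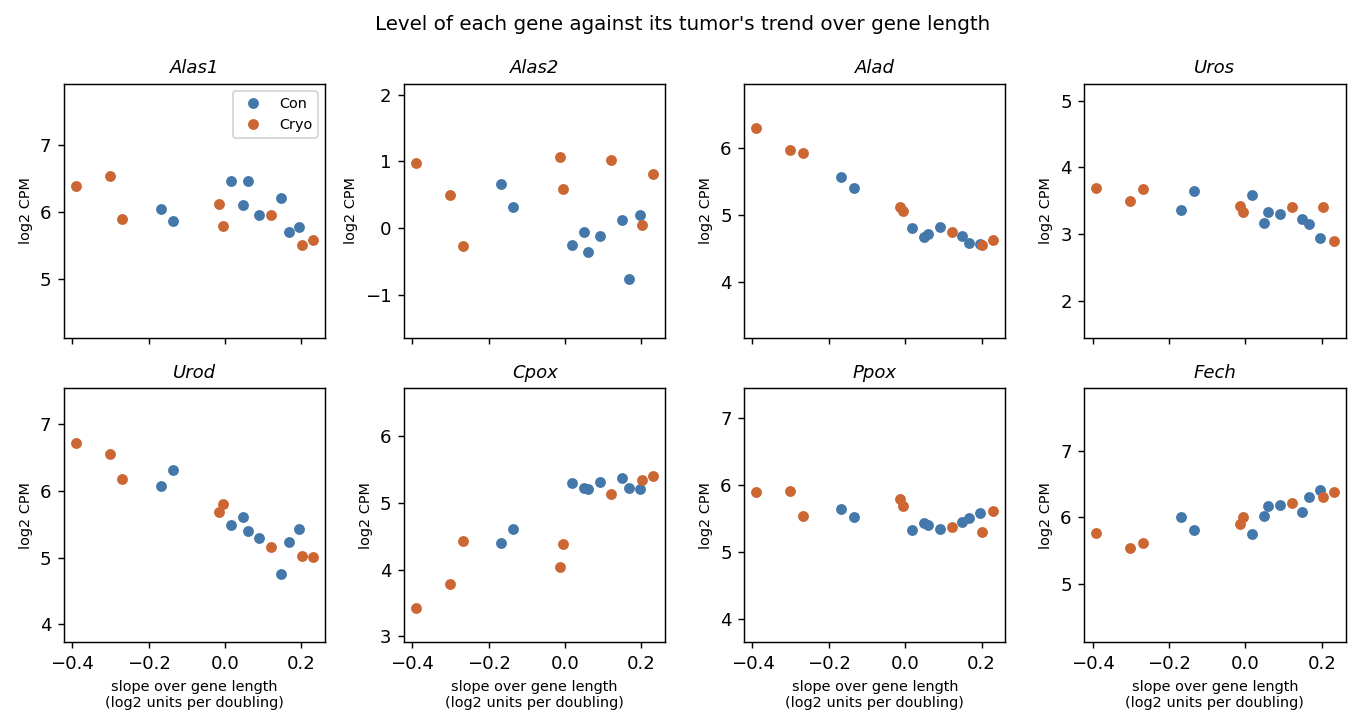
Log2 CPM of each gene (vertical axes, the same height in log2 units in every panel) against the slope of its tumor over gene length (horizontal axes, log2 units for each doubling of length), 1 point per tumor. Alad falls along the axis (r = -0.98) and Cpox (r = 0.88) and Fech (r = 0.87) climb, while Alas2 shows no such line (r = -0.26).

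Some of the 8 genes followed each other across tumors and others ran in opposite directions. Of the 28 pairs among the 8 genes, 15 had an adjusted permutation p under 0.05 for Pearson's r, 7 with a positive and 8 with a negative r. Alad and Urod had r = 0.92 (adjusted p = 9.3e-05; rho = 0.83). Cpox was negatively related to Alad (r = -0.90; rho = -0.79) and positively to Fech (r = 0.71; rho = 0.64). Alas2 took part in 1 of the 15 pairs, with Ppox (r = 0.58, adjusted p = 0.0265; rho = 0.57), and its r with Cpox was -0.53 (adjusted p = 0.0526). The pairs share the tumors and their length slopes, and the part of the slopes in these relations was not tested. Within Con, 0 of the 28 pairs had an adjusted exact permutation p under 0.05, within Cryo 15 did (7 by Spearman's rho), and 6 of 28 did without Cryo tumors 2, 4 and 5. In Con alone, r was -0.94 for Alad and Cpox (rho = -0.32) and -0.89 for Uros and Fech (rho = -0.83). Over all tumors these pairs had r = -0.90 (rho = -0.79) and r = -0.81 (rho = -0.79). Urod and Cpox had r = -0.86 in Con (rho = -0.67) and -0.88 over all tumors (rho = -0.85). Alad and Urod had r = 0.81 in Con (rho = 0.50), beside 0.92 over all tumors. Whether the relations differed between the groups was not tested.

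Per length, Urod and Alad had the highest levels and Alas2 the lowest. Median FPKM over the 17 tumors was 18.1 for Urod, 15.6 for Alad, 10.4 for Alas1, 10.1 for Ppox, 5.85 for Cpox, 4.92 for Fech, 2.84 for Uros and 0.442 for Alas2. Of neighbours in this order, Urod exceeded Alad in 12 of 17 tumors, Alas1 exceeded Ppox in 8 and Cpox exceeded Fech in 7, so these neighbours did not differ beyond their spread. Alad exceeded Alas1 in 16 tumors, and Ppox exceeded Cpox, Fech exceeded Uros and Uros exceeded Alas2 in all 17. The order depends on the length used: when reads were divided by the longest coding transcript of GENCODE M21, Ppox moved from place 4 to place 2, with a median of 24.97 beside 23.4 for Alad, and the other 7 genes kept their order.

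**Figure D5:**
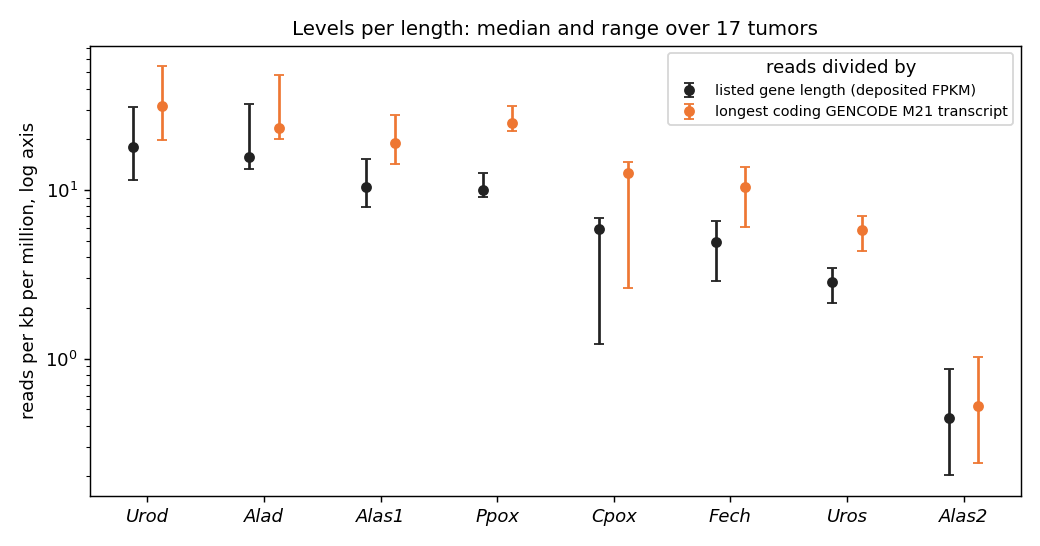
Level per length of each gene (reads scaled to length and to the tumor's total, as FPKM, log axis): points are medians and bars run from the lowest to the highest of 17 tumors, for the listed gene length (deposited FPKM) and for the longest coding transcript. Alas2 lies lowest with both lengths, at medians of 0.442 and 0.521, and Ppox is the gene whose place changes most.

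The genes whose levels followed Alas2 and Alas1 most closely were not members of the pathway. By Spearman's rho of log2 CPM over the 17 tumors among 13005 genes, those most like Alas2 were Prx (0.84), Arrdc2 (0.84), Vstm5 (0.79), Camk2b (0.79) and Zfp747 (0.78). Hbb-bt stood at place 173 in this order (rho = 0.58), Ppox at place 189 (rho = 0.57) and Alas1 at place 6261. The genes most like Alas1 were Fermt3 (0.93), Arhgap9 (0.92), Trf (0.91), which encodes the iron carrier transferrin, Plxdc2 (0.90) and Gm2a (0.88). Alas2 has few reads, so its order of tumors carries more counting error than that of Alas1.

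In the genes around the pathway, calls were at or below the share of 4.91% over all genes tested. Of 22 genes for transport and support of heme synthesis, 21 were tested, and 1 had an unadjusted p under 0.05, higher in Cryo: Glrx5 of iron-sulfur cluster assembly (log2 fold change 0.54, SE 0.25, adjusted p = 0.728 in edgeR). The median of the list was 0.07, with the lowest values for Abcb10 (-0.24), a mitochondrial transporter, and Slc25a37 (-0.17), which imports iron into the mitochondrion, and the highest, after Glrx5, for Tspo (0.53). Of 17 genes for use, transport and breakdown of heme, 14 were tested, none had an unadjusted p under 0.05, and the median was -0.05. Its extremes were Cd163 (-1.23, SE 0.70), a macrophage receptor for hemoglobin bound to haptoglobin, Hmox1 (-0.50, SE 0.36), which opens the heme ring, Blvrb (0.37) and Hp (0.94), haptoglobin itself. Of 6 regulators of Alas1, 5 were tested and none had an unadjusted p under 0.05, with values from -0.17 for Gabpa and -0.15 for Foxo1 to 0.05 for Nr1d1 and 0.13 for Nrf1.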

How the data were processed

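RNA of 9 Con and 8 Cryo tumors was sequenced, and groups were taken from the sample titles and treatment labels. The text of the study gives these group sizes the other way round and its methods give longer freezing cycles, and the labels were followed. The authors deposited a count of reads per gene, not normalized, and FPKM, which equalled the count over the listed length and the tumor's total for 260739 of 260739 values above 0 (relative tolerance 0.01). The aligner, the counter and strandedness are not given in the sources used here. Per the submitters' processing notes the build was GRCm38, but positions in the table equalled those of GENCODE M21 on that build for 0 of the 8 genes, with equal widths for 7, so positions are given as listed, with no build. No pair of tumors had identical counts. The table's columns of annotation were used only for gene names, positions and lengths.

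The 8 genes, the gene lists and the marker lists were chosen with earlier results of these data known. Counts were tested on the whole table with edgeR 4.0.16 in R 4.3.3 (TMM, filterByExpr, quasi-likelihood F test, group as the only term), with Benjamini-Hochberg adjustment over 13005 genes. The SE is the log2 fold change over the square root of F. For single genes, mean log2 CPM (prior count 2) was compared over all splits of the tumors (exact permutation test, two-sided). Relations across tumors used 100000 permutations, exact within a group. Alternatives were DESeq2 1.42.0, limma 3.58.1 voom with quality weights, upper-quartile normalization, other filters, a replicate block, a prior count of 0.5, each tumor left out, Cryo tumors 2, 4 and 5 left out, and offsets for each tumor's trend over gene length (spline, 4 degrees of freedom). Leaving out Con tumors 1 and 5 as well, and levels per longest coding transcript, were chosen after seeing the data. Scripts were tested on simulated counts. Genes named are the 8 genes, the hemoglobin genes, the 2 lowest and 2 highest fold changes of each pathway list and the 5 genes most like Alas1 and Alas2. Overlapping genes, the erythroid genes and the colon epithelium genes were named for what they check.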

Additional observations from a re-analysis of the deposited data

Results flagged for a closer look

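The level of Uros in Cryo tumor 7, 7.29 CPM from 121 reads, was the lowest of its group, and its gap to the next tumor was 0.548 of the range of the 8 Cryo tumors, over the critical value of 0.526 for 8 samples. It was the only one of 16 combinations of gene and group to be singled out in this way, and chance singles out about 1 in 20.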

How the results depend on the processing

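The direction of Alas2, and its unadjusted p under 0.05, were the same in every alternative run. The number of the 8 genes with an unadjusted p under 0.05, 2 with all tumors, was 1 with upper-quartile normalization, with no filter on low counts, without Cryo tumors 2, 4 and 5 and without these and Con tumors 1 and 5, and 4 with offsets for gene length. It was 1 to 4 when each tumor was left out: 4 without Con tumor 5, Cryo tumor 3 or Cryo tumor 6, 3 without Cryo tumor 7, and 1 without any of Con tumors 2, 3, 4, 6, 7, 8 and 9 and Cryo tumors 2, 4 and 5.

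Without Cryo tumors 2, 4 and 5, log2 fold changes turned to -0.0797 for Alad, -0.0190 for Uros, -0.213 for Urod and 0.0710 for Fech, and mean differences in the exact permutation test to -0.0465, -0.0113, -0.180 and 0.0806, with -0.230 for Cpox, no longer under 0.05. With length offsets, Alas1 (0.0421) and Fech (0.0105) changed sign, and Cpox (-0.42) and Ppox (0.23) had a p under 0.05. Without the 5 tumors, Fech was 0.0321 and Alad 0.15. Alad was not under 0.05 with upper-quartile normalization (0.49), voom (0.28) and no filter (0.50), whereas Cpox (-0.69) and Ppox (0.21) were with voom. Leave-one-out ranges were 0.34 to 0.63 for Alad, -0.622 to -0.355 for Cpox and 0.14 to 0.22 for Ppox, and -0.73 to -0.44 for Cpox and 0.13 to 0.22 for Ppox in the permutation test. The causes were not tested.

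Same-numbered tumors correlated at -0.51 to 0.642, over 0.1 for 4 of 8 pairs, and 2 of 8 Cryo tumors correlated best with their own number, so the numbers were not taken to pair tumors. With the replicate block, log2 fold changes were 0.69 for Alas2, 0.39 for Alad (no longer under 0.05) and -0.57 for Cpox (now under 0.05).

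Of the 28 pairs, 15 had an adjusted p under 0.05, 0 within Con, where r was -0.94 for Alad and Cpox, and 6 without Cryo tumors 2, 4 and 5. Alas2 and Hba-a1 had r = -0.0801 within Cryo and 0.54 without those 3 tumors. Hbb-bs (0.49 in Con, 0.0306 in Cryo) and Hbb-bt (0.57 and 0.31) did not pass within groups, and r of Alas2 with the length slope was 0.12 within Cryo. The 8 to 35 reads of Alas2 limit what these tumors can show of it.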

Other observations

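Among marker lists of other cell types, counts at an unadjusted p under 0.05 in edgeR were 2 of 5 tested neutrophil genes and 2 of 5 tested adipocyte genes, all higher in Cryo, and 1 of 7 tested macrophage genes, lower in Cryo, beside 4.91% of all genes. No gene passed among 6 endothelial, 6 fibroblast, 4 skeletal muscle, 3 platelet and megakaryocyte, 5 colon epithelium and 1 hepatocyte genes tested. The median log2 fold change was 1.65 for the colon epithelium genes, of which Krt18 (2.01) was highest and Cdh1 (-0.35) lowest, with a summed level of 16.7 to 96.7 CPM in Con and 10.4 to 215 CPM in Cryo.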
